A study of Mus musculus with 3 samples.

Results

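Rny1 and Rny3 are the 2 Y RNA genes of the mouse, and the small RNA reads that map to them are described here. The genes were chosen by name, and their loci were found in the deposited alignments by comparing each RNA with the bases that mismatching reads exclude at each position. By the same comparison, 127 of 3857 annotated small RNA genes other than miRNAs were placed, 2 of which are the Y RNA genes. The study sequenced small RNA from 3 biological replicates of MIN6, a mouse cell line established from an insulinoma, which is a tumor of pancreatic beta cells, the cells that secrete insulin. All replicates were cultured in 25 mM glucose without any other treatment, so the comparisons made here are between the 2 RNAs within the same library. Replicates 1, 2 and 3 held 9269795, 10816006 and 10218743 mapped reads of 14 to 41 nt, in which 0 reads of an RNA would still allow up to 0.324, 0.277 and 0.294 RPM (reads scaled to 1000000 mapped reads). The start with the most reads in every library lay at base 40 of the 64 nt hairpin of miR-375, a miRNA known for its high level in beta cells, and with the starts next to it held 34.5%, 36.9% and 38.3% of the mapped reads. Messenger RNA markers of the cell type cannot be read from these libraries.

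Y RNAs are short noncoding RNAs made by RNA polymerase III. Their 5′ and 3′ ends pair with each other into a long stem that carries the binding site of the Ro60 protein, the 3′ run of U that ends the transcript is bound by the La protein, and the bases between form a loop. Y RNAs are known for a role in the start of DNA replication and in the quality control of other RNAs, and they are a known source of small fragments from both ends in cells and in body fluids. Reads of up to 41 nt were mapped, and the longest reads from either end of the 2 RNAs were 40 nt. The whole RNAs can therefore not be seen in these libraries, and each level given here is a level of fragments.

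Both RNAs are shown whole from 5′ to 3′, since the results turn on where reads begin and end in them. Capitals mark the most abundant read that starts at base 1 and the most abundant read nearer the 3′ end.
Rny1: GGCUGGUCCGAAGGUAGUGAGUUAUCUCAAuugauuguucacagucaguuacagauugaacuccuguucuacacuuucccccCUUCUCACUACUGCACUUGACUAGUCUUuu
Rny3: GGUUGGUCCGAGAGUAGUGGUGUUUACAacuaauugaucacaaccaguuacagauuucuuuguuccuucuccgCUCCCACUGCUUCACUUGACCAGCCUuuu
Rny1 (ENSMUSG00000065701) is 112 nt long and was placed on the minus strand at chr6:47738068-47738179 of build mm9, the build named in the submitters' processing notes. Rny3 (ENSMUSG00000064945) is 102 nt long and was placed on the plus strand at chr6:47731623-47731724. Each is a gene of 1 exon that overlapped 0 other genes in the GENCODE annotation of GRCm38. There are 6343 bases between them, both in these placements and in that annotation. Of 7709 mismatching letters in alignments over Rny1 and 2667 over Rny3, 0 were equal to the base of the RNA at that position. This 0 is no separate check of the placement. The placement itself allowed no such letter, except at bases where every letter was seen as a mismatch.

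The 2 RNAs can be aligned over 102 bases, of which 81 were identical (79.4%). The longest shared runs were CAGUUACAGAUU in the loop (bases 46 to 57 of Rny1 and 45 to 56 of Rny3), CACUUGAC near the 3′ end (bases 96 to 103 and 86 to 93) and UGGUCCGA near the 5′ end (bases 4 to 11 in both). Few reads appeared to be shared in spite of this likeness. Alignments with a whole-number read count, called single-locus reads here, made up 99.6% ± 0.154 of the Rny1 reads and 99.7% ± 0.00811 of the Rny3 reads (SD, n = 3). Divided reads can also add up to a whole number, so these shares are upper limits. Reads on the opposite strand numbered 0 in every library for Rny1 and at most 0.5 for Rny3, where a value below 1 is a read divided among several loci.

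Fragments of Rny1 were far more abundant than those of Rny3. Rny1 was measured at 6132 RPM in replicate 1, 5734 RPM in replicate 2 and 5387 RPM in replicate 3, a mean of 5751 ± 373 RPM (SD, n = 3). For Rny3 the levels were 812 RPM, 847 RPM and 842 RPM, a mean of 834 ± 18.8 RPM. The ranges did not overlap, and the ratio of Rny1 to Rny3 reads was 7.55, 6.77 and 6.40 (6.91 ± 0.589). Per nt of RNA the ratio was 6.29 ± 0.536. Rny1 was higher in 3 of 3 libraries, and the exact permutation test that flips the sign of each library's log2 ratio gave p = 0.25, which is the smallest two-sided p that 3 libraries allow, so no comparison of this design can reach 0.05. Over the 6 such tests made here, the Benjamini-Hochberg adjusted p was 0.30. Among reads of 16 to 27 nt, the length range of miRNAs, the ratio was only 2.51.

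Most reads came from the ends of both RNAs, and the loop was nearly empty. Coverage of Rny1 was highest at base 15 with 3540 ± 251 RPM, fell to 13.2 ± 1.79 RPM at base 41 and rose again to 2185 ± 153 RPM at base 96. In Rny3 the order of the peaks was the opposite, with 227 ± 18.9 RPM at base 14 and 594 ± 6.72 RPM at base 82, and 9.58 ± 0.306 RPM at base 41 between them. Thus the 5′ peak was the higher of the peaks in Rny1 and the lower in Rny3, in each of the 3 libraries. In both RNAs the longest reads starting at bases 1 to 3 were 40 nt, so no read from base 1 covered base 41. The place of the minimum can therefore not be told apart from the limit on read length.

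**Figure D1:**
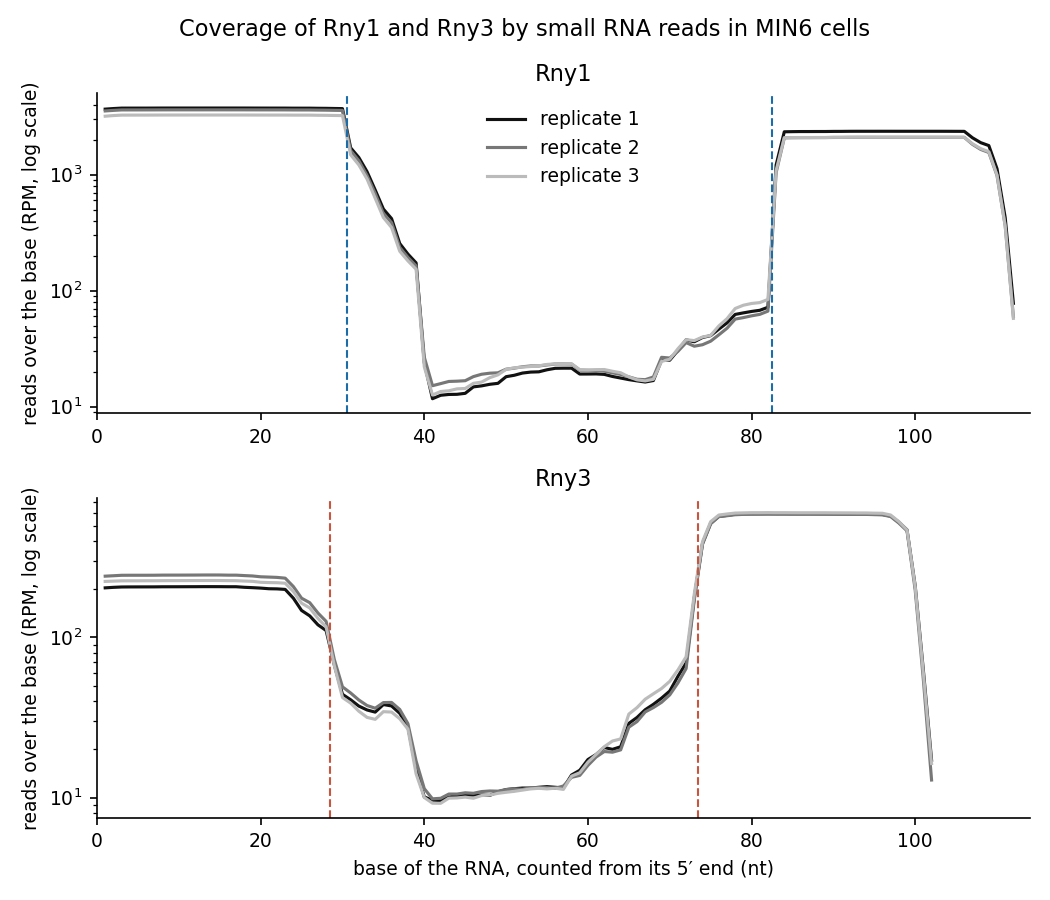
Coverage of Rny1 (top) and Rny3 (bottom) by small RNA reads, in RPM on a log scale, against the base of the RNA counted from its 5′ end, with a line for each of the 3 libraries. Dashed lines mark the end of the most abundant read that starts at base 1 (base 30 in Rny1 and base 28 in Rny3) and the start of the most abundant read nearer the 3′ end (bases 83 and 74). The lines of the libraries run close together, and coverage is lowest near base 41 in both RNAs, which the longest reads from base 1, at 40 nt, do not reach.

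To compare the ends, a read was called a 5′ fragment if it started at base 1, 2 or 3 and a 3′ fragment if it started later and ended in the last 5 bases. The 5′ fragments made up 60.8%, 62.7% and 60.2% of the Rny1 reads in replicates 1, 2 and 3 (61.2% ± 1.33). They were 25.3%, 28.7% and 26.6% of the Rny3 reads (26.9% ± 1.69). No library of Rny3 came near any library of Rny1, and the difference within libraries was 34.4 ± 0.944 percentage points, with Rny1 higher in 3 of 3 libraries (exact permutation p = 0.25, adjusted p = 0.30). For the 3′ fragments the order was reversed. They made up 30.4%, 28.5% and 30.8% of the Rny1 reads (29.9% ± 1.24) and 64.2%, 60.9% and 62.5% of the Rny3 reads (62.6% ± 1.65), a difference of -32.7 ± 1.04 percentage points (exact permutation p = 0.25, adjusted p = 0.30).

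The ratio of 5′ to 3′ fragments was 2.05 ± 0.132 for Rny1 and 0.430 ± 0.0384 for Rny3. In RPM, the 5′ fragments were at 3522 ± 250.0 for Rny1 and 224 ± 18.6 for Rny3, a ratio of 15.8 ± 2.01. The 3′ fragments were at 1718 ± 128 and 521 ± 5.31 RPM, a ratio of 3.30 ± 0.243. The excess of Rny1 over Rny3 was thus larger at the 5′ end than at the 3′ end in 3 of 3 libraries. Counting error was small beside this, as the 95% Wilson interval of the 5′ share in replicate 1 ran from 60.4% to 61.2% for Rny1 and from 24.4% to 26.3% for Rny3. In both RNAs replicate 2 had the highest 5′ share and the lowest 3′ share, with intervals apart from those of the other libraries except for the 3′ share of Rny3, where replicates 2 and 3 overlapped.

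**Figure D2:**
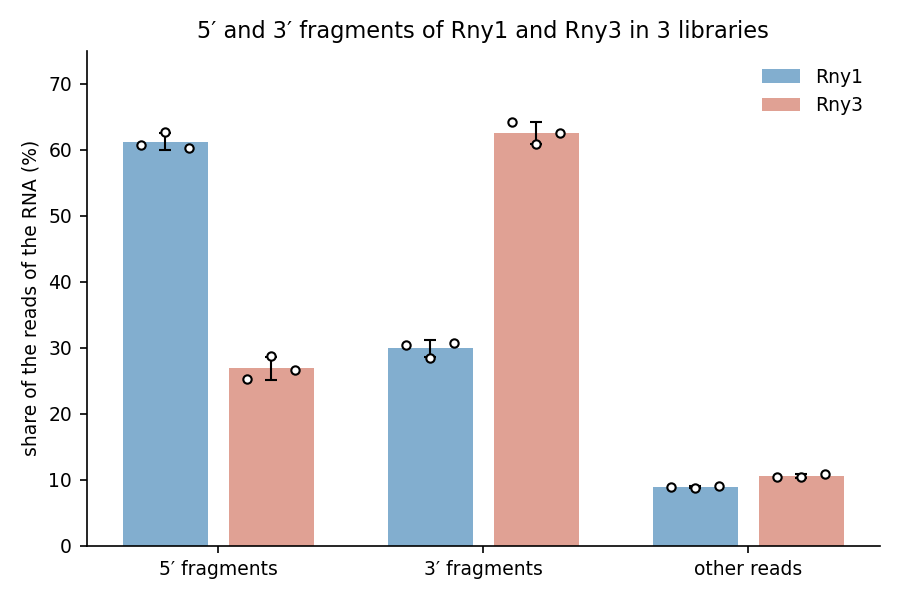
Share of the reads of each Y RNA that are 5′ fragments, 3′ fragments or other reads, in percent. Bars give the mean of 3 libraries, error bars the SD and open circles the libraries. The 5′ fragments hold 61.2% of the Rny1 reads and 26.9% of the Rny3 reads, and the 3′ fragments hold 29.9% and 62.6%.

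The remaining reads were 8.88% ± 0.132 for Rny1 and 10.6% ± 0.280 for Rny3. They were mostly 3′ fragments that stopped a little short of the last 5 bases. In Rny1, 87.4% ± 0.819 of them ended at base 106 or 107 and 87.8% ± 1.02 started at base 83 or 84. In Rny3, 72.9% ± 1.07 ended at base 96 or 97 and 67.3% ± 2.24 started at bases 73 to 76. Reads over the middle base of the RNA made up 0.397% ± 0.0432 of the Rny1 reads and 1.35% ± 0.0502 of the Rny3 reads. With every read assigned by which side of the middle its own center lay on, the 3′ side held 38.2% ± 1.32 of the Rny1 reads and 71.8% ± 1.72 of the Rny3 reads.

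Which RNA was richer in 5′ fragments depended on the read lengths counted. Reads of 16 to 27 nt made up 25.3% ± 0.626 of the Rny1 reads and 69.7% ± 0.0234 of the Rny3 reads. Within this range the 5′ fragments were 1.63% of the Rny1 reads and 18.6% of the Rny3 reads, so the difference turned to -16.9 percentage points. The 3′ share within this range was 67.2% for Rny1 and 69.7% for Rny3.

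The 5′ fragments of Rny1 had a sharp length, whereas those of Rny3 did not. Among the 5′ fragments of Rny1, 30 nt was the most frequent length in every library, with 52.5%, 53.2% and 52.2% of them (52.7% ± 0.518) and a mean length of 31.6 ± 0.0262 nt. Among those of Rny3 it was 28 nt, with 20.8%, 21.9% and 22.3% (21.7% ± 0.764) and a mean length of 27.7 ± 0.131 nt. The share at the most frequent length was higher in Rny1 in 3 of 3 libraries, by 31.0 ± 0.914 percentage points (exact permutation p = 0.25, adjusted p = 0.30).

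Nearly all 5′ fragments began at the very first base, 98.0% ± 0.0902 of them in Rny1 and 98.9% ± 0.235 in Rny3, so the lengths reflect where they end. In Rny1, 53.9% ± 0.465 ended at base 30, between an A and a U, and only 1.16% ± 0.0208 ended before it. A further 32.0% ± 0.273 ended at bases 31 to 34 and 13.0% ± 0.358 at bases 35 to 40, with a small peak of 4.09% ± 0.0867 at base 39. Rny1 5′ fragments therefore had an abrupt lower bound and a tail of longer reads.

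In Rny3 the 5′ fragments ended over a wider stretch, 76.7% ± 1.51 of them at bases 23 to 29. Base 28, between an A and another A, was the most frequent with 21.6% ± 0.666, followed by base 24 with 13.3% ± 0.318, base 23 with 11.1% ± 0.358 and base 29 with 10.7% ± 0.803. The last pair did not differ beyond their spread. A separate group of longer reads, 12.2% ± 1.46, ended at bases 36 to 39 with a peak of 5.94% ± 0.611 at base 38. Up to base 28, 69.9% ± 1.83 of the Rny3 5′ fragments had ended, but only 0.933% ± 0.0316 of those of Rny1.

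The 20 bases around the most frequent 5′ fragment end are shown for both RNAs, with the bases inside the fragment in capitals.
Rny1, bases 21 to 40: GUUAUCUCAAuugauuguuc
Rny3, bases 19 to 38: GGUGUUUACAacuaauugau
In the alignment of the RNAs, base 30 of Rny1 stands beside base 29 of Rny3, where 10.7% of the Rny3 5′ fragments ended. Base 28 of Rny3 stands beside base 29 of Rny1, where 0.228% ± 0.0110 of the Rny1 5′ fragments ended. The most frequent 5′ fragment ends were thus 1 base apart in this alignment. The shared run AAUUGAU, at bases 29 to 35 of Rny1 and bases 32 to 38 of Rny3, is not lined up with itself in it.

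**Figure D3:**
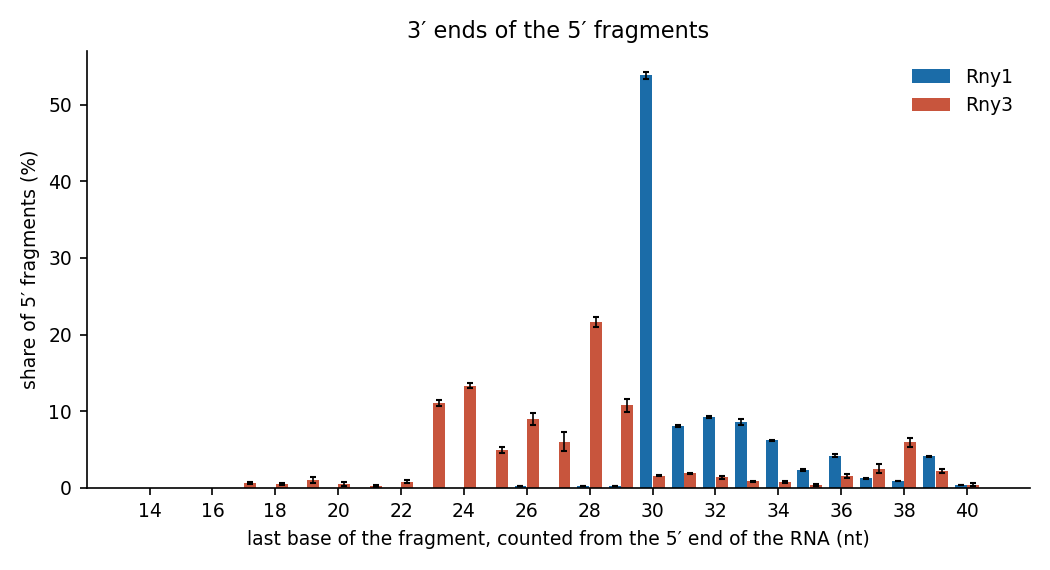
Last base of the 5′ fragments of Rny1 and Rny3, counted from the 5′ end of the RNA, as a share of the 5′ fragments of that RNA in percent. Bars give the mean of 3 libraries and error bars the SD, and bases with a mean share under 0.2% are left out. Rny1 has a single high bar at base 30 (53.9%) with a tail to longer reads, and Rny3 has bars from base 23 to base 29 and a lower group at bases 36 to 39.

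At the 3′ end the fragments of both RNAs began in a narrow window. In Rny1, 49.3% ± 0.602 of the 3′ fragments began at base 83 and 46.2% ± 0.685 at base 84, together 95.5% ± 0.476. In Rny3, 34.6% ± 0.524 began at base 74, 23.3% ± 0.251 at base 75, 17.4% ± 0.339 at base 73 and 10.1% ± 0.385 at base 76, together 85.4% ± 0.687. Base 83 of Rny1 and base 74 of Rny3 stand beside each other in the alignment. Base 84, which began nearly as many Rny1 fragments and led under some alternatives, stands beside a gap, and base 85 beside base 75 of Rny3. Bases 84 and 85 are both U, so the gap could equally stand at base 85, with base 84 beside base 75. The 20 bases around the starts at base 83 of Rny1 and base 74 of Rny3 are shown with the bases inside the fragment in capitals.
Rny1, bases 73 to 92: acuuucccccCUUCUCACUA
Rny3, bases 64 to 83: uccuucuccgCUCCCACUGC

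The lengths of the 3′ fragments were closer to each other than those of the 5′ fragments. The most frequent length was 27 nt in Rny1, with 36.3%, 36.3% and 36.0% of the 3′ fragments in the 3 libraries (36.2% ± 0.209), and 26 nt in Rny3, with 25.8%, 25.9% and 25.4% (25.7% ± 0.243). The mean lengths were 27.5 ± 0.0243 nt and 26.6 ± 0.0662 nt. The share at the most frequent length was higher in Rny1 in 3 of 3 libraries, by 10.5 ± 0.0811 percentage points (exact permutation p = 0.25, adjusted p = 0.30). This difference was smaller than that of the 5′ fragments in every library, but it ranged from 5.76 to 20.8 percentage points with other definitions of a fragment.

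Both genes end in 4 U in the annotation used here, and RefSeq lists each RNA with 1 base fewer, at 111 and 101 nt. The last 12 bases are shown with this U run in capitals.
Rny1: gacuagucUUUU
Rny3: gaccagccUUUU
Reads from the 3′ side rarely ended at the last U. They ended most often at base 110 (29.6% ± 0.345) and base 109 (27.4% ± 0.308) in Rny1, that is, 2 or 1 bases into the run. In Rny3 they did so at base 99 (43.8% ± 0.852) and base 100 (24.5% ± 0.305). Mismatching last bases are counted in these positions, which therefore do not give the number of U kept. Exactly the last base was the end of 2.15% ± 0.254 of these reads in Rny1 and 2.18% ± 0.272 in Rny3, and 0.306% ± 0.0301 of all Rny1 reads and 0.294% ± 0.0768 of all Rny3 reads ended past it.

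Counted by the last base that matched the genome, at least 1 U of the run was kept in 74.1% ± 0.660 of the reads from the 3′ side of Rny1 and 77.2% ± 0.744 of those of Rny3. Exactly 1 U was kept in 31.6% ± 1.38 and 46.4% ± 0.715, and exactly 2 U in 34.1% ± 1.14 and 24.6% ± 0.685. An end exactly at the last of the 4 U was found in 0.919% ± 0.0537 and 1.42% ± 0.253. Rny1 also had a separate end at base 106, ahead of the run, with 12.4% ± 0.558 of the reads from its 3′ side, while the base of Rny3 at the same distance from the end, base 96, had 4.62% ± 0.342.

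**Figure D4:**
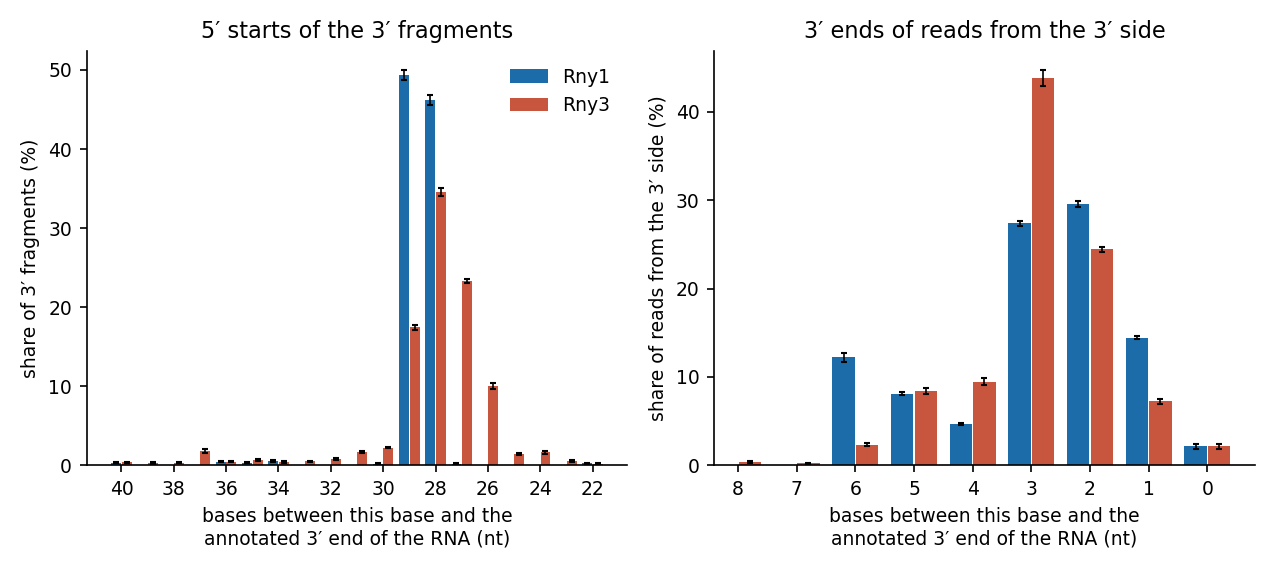
Left, first base of the 3′ fragments of Rny1 and Rny3 as a share of the 3′ fragments in percent, and right, last base of the reads from the 3′ side as a share of those reads in percent, both against the number of bases that follow this base in the annotated RNA. Bars give the mean of 3 libraries and error bars the SD, and bases with a mean share under 0.2% are left out. The starts lie 29 and 28 bases ahead of the last base in Rny1 and 29 to 26 bases ahead of it in Rny3, and most ends lie 1 to 3 bases ahead of it.

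The single most abundant read of either RNA was the 30 nt read of Rny1 from base 1 to base 30. It was present at 1947, 1908 and 1689 RPM in replicates 1, 2 and 3, a mean of 1848 ± 139 RPM. The reads from base 83 to base 110 and from base 83 to base 109 followed at 326 ± 24.2 and 321 ± 29.7 RPM and did not differ beyond their spread. In Rny3 the most abundant read ran from base 74 to base 99 with 93.6, 96.9 and 95.0 RPM, a mean of 95.2 ± 1.63 RPM. Next came the reads from base 75 to base 99 with 67.4 ± 1.90 RPM and from base 74 to base 100 with 52.2 ± 2.47 RPM. The most abundant read at the 5′ end of Rny3, from base 1 to base 28, was at 48.3 ± 5.14 RPM.

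Summed over all reads that begin there, base 1 of Rny1 ranked 28, 26 and 30 among the 5′ starts of replicates 1, 2 and 3, out of 465452, 498723 and 449351 starts. Base 83 of Rny1 ranked 74, 92 and 94, and base 84 ranked 75, 81 and 93. For Rny3, base 1 ranked 234, 206 and 213 and base 74 ranked 228, 222 and 223, so neither of its starts was above the other in all libraries.

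In the predicted folds, the most frequent 5′ fragment end lay between paired bases in both RNAs. The most frequent 3′ fragment start was unpaired in Rny1 and paired in Rny3, where other frequent starts were unpaired. In the minimum free energy structure from RNAfold, Rny1 had 34 base pairs at -34.3 kcal/mol, 17 of them between bases 1 to 30 and the stretch from base 83 to the 3′ end. Rny3 had 33 base pairs at -27.1 kcal/mol, 20 of them between bases 1 to 28 and the stretch from base 74 to the 3′ end. The 5′ fragment end of Rny1 lay within a predicted stem, since bases 30 and 31 paired with bases 49 and 48. In Rny3, bases 28 and 29 likewise paired with bases 49 and 48, with base 28 as the first base of that predicted stem. The 3′ fragment start of Rny1 lay in a predicted single strand, as neither base 82 nor base 83 was paired, whereas in Rny3 bases 73 and 74 paired with bases 23 and 22. Bases 72, 75 and 76 of Rny3 were unpaired, and bases 75 and 76 began 23.3% and 10.1% of its 3′ fragments. These are predictions for the naked RNA and were not measured.

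Some reads of both RNAs ended in a base that did not match the genome. They made up 11.2%, 10.3% and 10.4% of the Rny1 reads (10.6% ± 0.508) and 10.9%, 10.3% and 10.2% of the Rny3 reads (10.5% ± 0.414), beside 13.5% ± 0.279 of all mapped reads. The difference was 0.18 ± 0.159 percentage points, below the spread between the libraries of either RNA, with Rny1 higher in 2 of 3 libraries (exact permutation p = 0.50, adjusted p = 0.50). Within the 3′ fragments, 18.1% ± 1.02 of the Rny1 reads and 11.2% ± 0.327 of the Rny3 reads had such an end, with ranges that did not overlap. Within the 5′ fragments it was 8.10% ± 0.197 and 6.19% ± 1.02.

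Among reads from the 3′ side of both RNAs, the mismatching end was mostly a single A. Among the mismatching ends of reads from the 3′ side, a single A made up 65.7% ± 0.877 in Rny1 and 64.1% ± 1.16 in Rny3. In Rny1 it most often followed base 110 (5.69% ± 0.141 of the reads from the 3′ side) and base 109 (2.57% ± 0.733), and in Rny3 base 99 (2.82% ± 0.0852) and base 100 (2.67% ± 0.199). These are ends at which the fragment kept 1 or 2 U. The next base of the RNA there is a U, so a further U counts as a match and could not appear as a mismatch. Whether the mismatching letters were added to the fragments was not tested. At the 5′ fragments the RNAs differed, as a single A made up 53.3% ± 1.35 of the mismatching ends in Rny1 and 10.3% ± 2.63 in Rny3, where a single T made up 36.8% ± 5.53 and a single C 23.4% ± 2.29. A letter equal to the next base of the RNA counts as a match. An A could therefore not appear as a mismatch after base 28 of Rny3, the most frequent end, where the next base is A. In Rny1 the single A most often followed base 31 (1.65% ± 0.126 of the 5′ fragments) and base 34 (1.31% ± 0.0538), rather than base 30, the most frequent end. How far the sequences set the contrast was not tested.

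Other short RNAs made by RNA polymerase III were compared by the same measures. Vaultrc5 (vault RNA), Rn7s1 and Rn7s2 (copies of the 7SL RNA of the signal recognition particle), Rmrp (the RNA of RNase MRP) and 15 of 180 genes for 5S rRNA could be placed, whereas Rn7sk, Rpph1 and the 2 genes for Rnu6 could not. Rny1, at 51.3 ± 3.33 RPM per nt of RNA, was above each of the 125 other placed genes, while genes that could not be placed were not compared. This ranks single gene copies. Reads of near-identical copies, such as the 5S genes, were divided among them, and 5S rRNA as a whole was not compared with Rny1. Of these 125, 19 stood at a locus that another gene matched equally well and 1 had no reads in a library, and the comparisons that follow use the other 105. Rny3, at 8.17 ± 0.184 RPM per nt, was below 4 of the 105. These were Gm26202 (19.0 ± 4.73 RPM per nt), Gm25855 (12.7 ± 0.336) and Gm23212 (9.14 ± 0.0937), all annotated as snoRNA genes, and the 5S gene n-R5s2 (9.13 ± 1.51), the last of which did not differ from Rny3 beyond its spread. Another 5S gene, n-R5s115, was at 8.17 ± 3.29 RPM per nt and could not be told from Rny3 either. Vaultrc5 was at 1.21 ± 0.0186 RPM per nt, Rmrp at 0.931 ± 0.0519 and Rn7s1 at 1.29 ± 0.0530.

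The 5′ fragment share of Rny1 stood above that of most of these genes, but was not the highest. The median share of reads starting at bases 1 to 3 was 5.04% over the 105 genes, and 13 of them were above Rny1. In Vaultrc5 it was 0.559% ± 0.152, beside 81.3% ± 1.41 of reads ending in the last 5 bases. It was 0.564% ± 0.164 in Rmrp, 1.59% ± 0.236 in Rn7s1 and 1.60% ± 0.236 in Rn7s2. Rn7s1 and Rn7s2 are near-identical, so that their reads were divided between them. The same holds for the 13 5S genes among the 105, where the share ranged from 0 to 80.1% and the level from 0.593 ± 0.136 to 9.13 ± 1.51 RPM per nt, and single copies cannot be told apart with certainty.

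By the shape of the length distribution, measured as the sum over lengths of the smaller share and averaged over 3 libraries, Rny1 and Rny3 overlapped by 48.2% ± 1.26. Other genes were more like each of them. The closest to Rny1 were Snord66, a snoRNA gene, with 64.9% ± 0.431, Rn7s1 with 59.2% ± 0.536 and Rn7s2 with 59.1% ± 0.534. The closest to Rny3 were Rnu11, the U11 RNA of the minor spliceosome, with 66.7% ± 1.05, Rn7s6, another 7SL copy, with 60.7% ± 0.955 and Gm23201, a snoRNA gene, with 60.3% ± 0.709. In each trio the last 2 did not differ beyond their spread.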

How the data were processed

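Small RNA of 3 MIN6 replicates was sequenced with the Illumina TruSeq small RNA kit. The authors trimmed adaptors with cutAdapt, aligned reads without mismatches with Bowtie, and then aligned the remaining reads with mismatches near those matches with SHRiMP. Deposited by the authors were expected counts, the reads behind each distinct alignment, with a read of several equally good loci divided equally among them. The replicates were not pooled and the values are not normalized. The build is mm9 per the labels.

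Alignments marked as exact list an end 1 base early, which was corrected. Sequences of small RNA genes up to 350 nt came from GENCODE M21. A gene was placed where no mismatching letter of a locus with at least 1500 reads equaled the base of the RNA and the excluded bases gave at least 20 bits, and 0 reversed sequences reached this. Rny1 reached 161.8 bits and Rny3 122.3. Levels are RPM of all mapped reads. Shares have 95% Wilson intervals, which cover counting error only because reads carry no molecular identifiers, and a count of 0 allows up to 3 reads. Rny1 and Rny3 were compared within libraries with a two-sided exact permutation test of signs. Folds came from RNAfold 2.7.2, and Python 3.11.15, numpy 2.4.6, pandas 2.3.3, scipy 1.17.1, Biopython 1.88 and matplotlib 3.10.9 were used. The scripts were checked on simulated data.

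Named genes are Rny1 and Rny3, the placed RNAs of a fixed list of RNA polymerase III products, and the 3 other small RNA genes whose length distribution overlaps most with that of each Y RNA. Gm26202, Gm25855 and Gm23212 were named after their values were seen, and the ranges of neighboring ends were set in the same way. The members and lists were chosen with earlier results of these data known. Alternatives were single-locus reads, reads without a mismatch, other denominators, other definitions of a fragment, reads of 16 to 27 nt and leaving out each replicate. The last base matching the genome was added after seeing the data.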

Additional observations from a re-analysis of the deposited data

How the results depend on the processing

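The levels moved with the reads and the denominator. With reads without a mismatch, Rny1 was at 3625 RPM and Rny3 at 633 RPM. They were at 8037 and 1165 RPM when scaled to the reads marked exact, at 9058 and 1315 RPM with the start with the most reads and the bases next to it left out of the denominator, and at 1457 and 581 RPM with reads of 16 to 27 nt. Rny1 stayed above Rny3 under all of these, with ratios of 6.89 for single-locus reads, 5.74 for reads without a mismatch and 2.51 for reads of 16 to 27 nt. The difference in 5′ share turned to -16.9 percentage points with reads of 16 to 27 nt, where reads over 27 nt, the bulk of the Rny1 5′ fragments, are left out by construction. With 3′ fragments required to end at the very last base, the difference in 3′ share was -0.743 percentage points, since few reads reach that base. The most frequent start of Rny1 3′ fragments averaged 83.7 over the libraries with reads without a mismatch, because base 84 then led base 83 in replicates 1 and 2. Base 84 also led in every library with reads of 16 to 27 nt, in replicates 2 and 3 when fragments were assigned by the side of the RNA, and in replicate 1 with the strict first and last base. The 3′ fragments' difference in the share of the most frequent length was 5.76 percentage points by the side of the RNA, 15.96 by the last base matching the genome and 20.8 with the strict first and last base, where the most frequent lengths were 29 or 30 nt in Rny1 and 29 nt in Rny3. Leaving out each replicate in turn gave ratios of 6.58 to 7.16, 5′ share differences of 33.8 to 34.7 and 3′ share differences of -33.1 to -32.1 percentage points. The most frequent ends at base 30 of Rny1 and base 28 of Rny3 were the same in every library under these alternatives, apart from reads of 16 to 27 nt, where they were at bases 26 and 24. The libraries form 1 group, so no groups could be paired by replicate number, and the 2 RNAs were compared within each library. Fragments over 41 nt were not captured.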

Other observations

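Mismatches inside the reads, not counting those at the 3′ end, were unevenly spread over the Y RNAs. They occurred in 29.3% ± 0.456 of the Rny1 reads and 15.4% ± 0.604 of the Rny3 reads (SD, n = 3), and C was the letter read in 91.8% ± 0.12 and 70.4% ± 1.19 of them, beside 54.8% ± 1.20 over all mapped reads. Most were a C read at an A. In Rny1, counted from base 1 of the RNA with the base of the RNA first, A12C was seen in 12.6% of the reads over that base, A29C in 9.78% ± 0.0642 and A92C in 8.10% ± 1.19, whereas A16C, A30C and A97C were seen in 0.106%, 0.160% and 0.187%. In Rny3, A11C was seen in 8.28% ± 0.976 and A29C in 6.45% ± 1.03, whereas A13C and A16C were seen in 0.199% and 0.274%. In every library, each of the bases named here with a high share stood above each of those with a low share of the same RNA. The bases named here were chosen after their values were seen, and no cause was tested.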
